A study of Mus musculus with 32 samples.

Results

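Glucose enters a cell through a transporter and is split in the cytosol by a chain of enzymes into pyruvate, which lactate dehydrogenase can turn into lactate. The genes described here are 10 members of that chain, listed by name and looked up by Ensembl identifier: the transporter gene Slc2a1 (GLUT1) and the enzyme genes Hk2, Aldoa, Tpi1, Gapdh, Pgk1, Pgam1, Eno1, Pkm and Ldha. All 10 had a row in both expression tables, one for E15.5 with 19404 genes and one for E19.5 with 26244, and all 10 passed the filter on low values (at least 10 in at least 3 libraries) that kept 10289 and 13840 of them. Their positions (GRCm38, Ensembl gene bounds) are chr4:119108711-119137983 for Slc2a1, chr6:82725025-82774454 for Hk2, chr7:126795234-126800751 for Aldoa, chr6:124810586-124814296 for Tpi1, chr6:125161715-125166467 for Gapdh, chrX:106187100-106203699 for Pgk1, chr19:41911923-41918660 for Pgam1, chr4:150236721-150248879 for Eno1, chr9:59656368-59679375 for Pkm and chr7:46841475-46855627 for Ldha.

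As general background, HIF-1 and MYC are known to raise transcription of this set, and Notch and IL-7 signals are known to promote glucose uptake and use in early thymocytes.

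The 32 libraries are bulk RNA-seq of sorted thymic cells from embryos of the strain named 5x polychromILC, at stages E15.5 and E19.5, with no treatment named. At E19.5 there were 6 populations of 3 libraries each: the DN1 gates BCL11blowID2low, BCL11b+ID2+, BCL11b+ID2-, BCL11b-ID2+ and BCL11b-ID2-, and DN2 cells. E15.5 had the same populations without the BCL11blowID2low gate, 3 libraries each but 2 for DN2. DN1 and DN2 are successive stages of thymocytes that lack CD4 and CD8. BCL11b is a transcription factor of T-lineage commitment, and ID2 restrains E proteins and is high in innate lymphoid cells. The labels do not state whether embryos were pooled or whether the libraries of a gate are separate animals. A p-value therefore sets a difference of gate means against the spread of these libraries only, and that spread may be technical.

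Stretches upstream of 5 members are shown because these genes gave calls below and because HIF-1 and MYC are known to bind short E-box-like sequences in promoters of this pathway. Each is the 250 bases before a RefSeq transcript start (build GRCm38.p6), 5′ to 3′, with matches on either strand to 3 motifs in capitals. The motif ACGTG is the core known to be bound by HIF-1 with A as its first base. GCGTG is that core with G first. CACGTG is the E-box known to be bound by MYC, and a match to it also counts as the first motif. Where a gene has several starts, a window with the most matches is shown.
Slc2a1, chr4:119108495-119108744, plus strand: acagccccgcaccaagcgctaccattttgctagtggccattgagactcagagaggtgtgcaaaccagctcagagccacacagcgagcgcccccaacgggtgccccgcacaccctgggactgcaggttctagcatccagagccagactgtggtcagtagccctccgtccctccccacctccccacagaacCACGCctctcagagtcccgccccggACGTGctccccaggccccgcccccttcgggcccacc
Aldoa, chr7:126799255-126799504, minus strand: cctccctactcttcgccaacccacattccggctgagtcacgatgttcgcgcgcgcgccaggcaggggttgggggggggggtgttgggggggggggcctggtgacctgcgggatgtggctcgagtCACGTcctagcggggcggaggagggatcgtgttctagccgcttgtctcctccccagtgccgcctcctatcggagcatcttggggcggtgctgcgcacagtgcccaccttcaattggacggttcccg
Eno1, chr4:150236947-150237196, plus strand: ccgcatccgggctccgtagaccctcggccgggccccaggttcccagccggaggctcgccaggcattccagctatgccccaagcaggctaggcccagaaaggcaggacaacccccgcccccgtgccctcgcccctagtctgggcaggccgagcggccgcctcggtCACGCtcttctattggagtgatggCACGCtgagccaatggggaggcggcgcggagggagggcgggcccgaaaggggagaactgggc
Pkm, chr9:59656977-59657226, plus strand: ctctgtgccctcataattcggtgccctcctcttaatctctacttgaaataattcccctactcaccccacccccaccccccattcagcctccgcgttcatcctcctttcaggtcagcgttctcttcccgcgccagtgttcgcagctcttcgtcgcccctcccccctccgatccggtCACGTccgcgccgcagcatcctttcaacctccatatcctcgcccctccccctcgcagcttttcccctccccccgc
Ldha, chr7:46845554-46845803, plus strand: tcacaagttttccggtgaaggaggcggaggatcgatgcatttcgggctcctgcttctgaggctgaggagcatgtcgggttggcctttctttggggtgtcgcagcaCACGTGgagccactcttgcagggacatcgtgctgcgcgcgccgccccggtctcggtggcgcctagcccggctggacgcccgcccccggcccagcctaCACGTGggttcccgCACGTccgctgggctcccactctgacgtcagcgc
At least 1 of the motifs stood in 13 of the 16 windows of the 10 members, which covered 9 members, and in 38.6% of the 32851 RefSeq mouse windows of this length. ACGTG was found in 8 of the 16 windows, against 16.6% of all windows, and for 7 members, against 4998 of 27025 genes. GCGTG was found in 7 of the 16 windows, against 28.2%, and for 5 members, against 8338 of 27025 genes. CACGTG stood only in the Ldha window among the members, and in 6.02% of all windows. The Tpi1 window held none of these letters. These are descriptions of sequence, since no binding was measured.

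The deposited values are normalised read counts, the reads of a gene divided by a size factor of the library, with a separate table for each stage, so levels are compared within a stage. The E15.5 libraries held 12030749 to 20709387 recovered reads, 50.8 to 80.0% of them from the mitochondrial ribosomal genes mt-Rnr1 and mt-Rnr2. Those of E19.5 held 2599470 to 9498133, with 28.7 to 58.8% from these genes. At E19.5 the sorting genes followed the gates: Bcl11b averaged 448 ± 62.5 in BCL11blowID2low cells, between 1674 ± 348 in BCL11b+ID2- and 16.3 ± 12.98 in BCL11b-ID2- cells (SD, n = 3 each). Id2 averaged 169 ± 12.2 in BCL11blowID2low cells, between 1438 ± 140.0 in BCL11b-ID2+ and 21.2 ± 3.20 in BCL11b-ID2- cells. At E15.5 Bcl11b averaged 3172 ± 2105 in BCL11b+ID2+ and 22.3 ± 16.6 in BCL11b-ID2- cells, and Id2 averaged 1428 ± 927 in BCL11b-ID2+ and 60.7 ± 57.3 in BCL11b-ID2- cells. Their levels in the other E15.5 gates are not given here. Neither gene was called in any of the 5 contrasts between E15.5 gates in limma, so the sorting genes bear out these gates less firmly than at E19.5. Ptprc (CD45), a marker of all leukocytes, was present in every library. Differences are on the log2(value + 1) scale, from 1 limma model per stage with Benjamini-Hochberg adjustment over all genes tested, and a gene is called at adjusted p under 0.05. That scale understates the change of genes with few reads. In bulk libraries, fewer cells of a type that express a gene and less RNA per cell cannot be told apart.

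Several of the members have near-identical processed copies in the mouse genome, and the authors' treatment of reads that match more than 1 place was not given in the sources used here. Of all 50-base stretches in the transcripts, 68.0% of those of Pgk1, 58.4% of Gapdh, 49.5% of Eno1, 41.5% of Pgam1 and 23.7% of Pkm occur also in transcripts of another gene. The shares were 10.4% for Ldha, 8.46% for Aldoa, 6.83% for Tpi1, 1.56% for Slc2a1 and 0 for Hk2. For Gapdh the other genes number 222, of which 213 are annotated as pseudogenes. Their rows summed to a mean of 240.5 normalised read counts per library at E19.5, against 81.1 for Gapdh itself. Reads of these genes may be split with their copies, so the levels of Pgk1, Gapdh, Eno1, Pgam1 and Pkm are uncertain. Annotated genes on the other strand overlap Slc2a1 (Gm12867 and Gm12868), Hk2 (Gm17034), Aldoa (Fam57b), Tpi1 (Spsb2) and Gapdh (Iffo1), and since no strand setting was given for the counts, their reads cannot be told apart.

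At E19.5, 5 of the 10 members differed somewhere among the 6 gates in a moderated F-test in limma: Aldoa (adjusted p = 0.000505), Eno1 (0.00135), Ldha (0.00387), Pkm (0.00439) and Slc2a1 (0.0299). This is 5 of 10 members where 32.9% of the 13840 genes tested were called. Over the 11 contrasts between 2 gates, the share of all genes called ran from 2.98% to 16.2%. Of 110 tests of members in them, 16 were called, and in all 16 the gate named first was the higher one. Aldoa had 6 of these calls, Eno1, Pkm and Ldha had 3 each, and Slc2a1 had 1. Hk2, Tpi1, Gapdh, Pgk1 and Pgam1 had 0 calls in limma, with 13 of their 55 tests at an unadjusted p under 0.05 and 0 called in edgeR. Of all 13840 genes, 1587 to 4006 had an unadjusted p under 0.05 in a contrast.

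**Figure D1:**
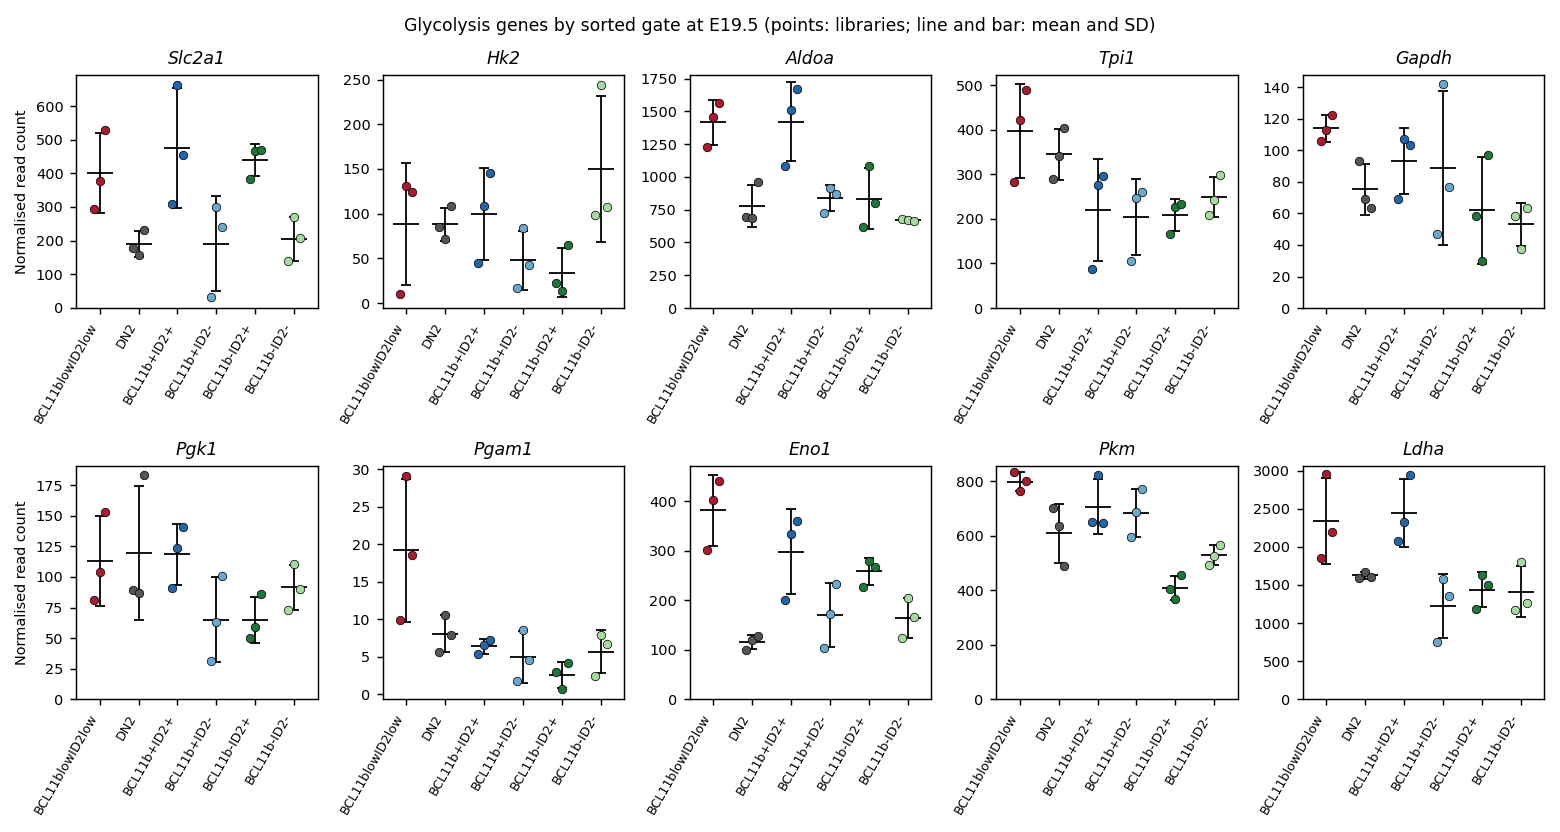
Normalised read counts (linear axis) of the 10 genes in each library at E19.5, by sorted gate; points are libraries, and the line and bar are the mean and SD of 3 libraries. Aldoa and Ldha stand highest in the BCL11blowID2low and BCL11b+ID2+ gates, while Hk2 and Pgam1 spread widely within gates.

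The BCL11blowID2low gate holds DN1 cells low for both sorting markers and was sorted only at E19.5. It was called higher than some of the other gates for 4 of the enzymes, Aldoa, Eno1, Pkm and Ldha. For none of the 10 genes was it called lower. No member was called over BCL11b+ID2+ cells, whose means of Aldoa (1423 against 1417) and Ldha (2446 against 2336) were the higher ones. Slc2a1, which brings glucose into the cell, had 294, 378 and 530.3 normalised read counts in the 3 BCL11blowID2low libraries. The others had 178, 158 and 232 in DN2 and 309.8, 662 and 454 in BCL11b+ID2+ libraries. BCL11b+ID2- libraries had 31.2, 301 and 241, those of BCL11b-ID2+ 384, 465 and 468, and those of BCL11b-ID2- 139, 269 and 207. The BCL11blowID2low libraries lay above all DN2 and BCL11b-ID2- libraries, but the transporter was called in 0 of the 5 contrasts of this gate in limma, with 1 at an unadjusted p under 0.05 and 0 in edgeR. Nearest to a call was the contrast with BCL11b+ID2- (log2 difference 1.55, adjusted p = 0.0786). Slc2a1 was called there with the library number as a replicate block (adjusted p = 0.0288 in limma).

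Aldoa, the aldolase that splits fructose bisphosphate, had 1230.0, 1457 and 1564 normalised read counts in BCL11blowID2low libraries. It had 693, 683 and 963 in DN2 and 1084, 1515 and 1669 in BCL11b+ID2+ libraries. BCL11b+ID2- libraries had 729, 917 and 869, those of BCL11b-ID2+ 622, 1083 and 801, and those of BCL11b-ID2- 681, 674 and 667. All 3 BCL11blowID2low libraries lay above all libraries of DN2, BCL11b+ID2-, BCL11b-ID2+ and BCL11b-ID2-, and they overlapped with BCL11b+ID2+. Aldoa was called over BCL11b-ID2- (2.102-fold by means, log2 difference 1.06 ± 0.21 SE, adjusted p = 0.00109), over DN2 (log2 difference 0.87 ± 0.21 SE, adjusted p = 0.00589), over BCL11b-ID2+ (log2 difference 0.79 ± 0.21 SE, adjusted p = 0.0186) and over BCL11b+ID2- (log2 difference 0.76 ± 0.21 SE, adjusted p = 0.0314), all in limma. Over BCL11b+ID2+ the log2 difference was 0.01 with a 95% interval of -0.43 to 0.45. The call over BCL11b-ID2+ was lost without library 1 or 4 of BCL11b-ID2+ or library 2 or 4 of BCL11blowID2low (highest adjusted p = 0.143, lowest log2 difference 0.60). That over BCL11b+ID2- was lost without library 1 or 4 of BCL11b+ID2- or library 2 or 4 of BCL11blowID2low (highest adjusted p = 0.13, lowest log2 difference 0.66).

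Eno1, enolase 1, which makes phosphoenolpyruvate, had 302, 403 and 441 in BCL11blowID2low libraries. It had 98.9, 119.9 and 128 in DN2 and 199, 334 and 361 in BCL11b+ID2+ libraries. BCL11b+ID2- libraries had 104, 171 and 233, those of BCL11b-ID2+ 228, 279 and 267, and those of BCL11b-ID2- 123, 204 and 165. DN2 had the lowest mean and did not overlap with BCL11blowID2low cells. The contrast with DN2 was the largest called for any member in the gate, 3.30-fold by means (log2 difference 1.71 ± 0.32 SE, adjusted p = 0.000548 in limma). Eno1 was also called over BCL11b-ID2- (log2 difference 1.22 ± 0.32 SE, adjusted p = 0.0108) and over BCL11b+ID2- (log2 difference 1.22 ± 0.32 SE, adjusted p = 0.0219). The call over BCL11b-ID2- was lost without library 1 of BCL11b-ID2- (highest adjusted p = 0.0663, lowest log2 difference 1.03), and that over BCL11b+ID2- without library 1 of BCL11b+ID2- or library 2 or 4 of BCL11blowID2low (highest adjusted p = 0.134, lowest log2 difference 0.91).

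Pkm, pyruvate kinase, which yields pyruvate and ATP, had 832, 763 and 799.8 in BCL11blowID2low libraries, a coefficient of variation of 4.33%. The gene had 701, 635 and 491 in DN2 and 652, 821 and 648 in BCL11b+ID2+ libraries. BCL11b+ID2- libraries had 594, 686 and 769, those of BCL11b-ID2+ 404, 366 and 456, and those of BCL11b-ID2- 493, 525 and 566. The BCL11blowID2low libraries lay above all DN2, BCL11b-ID2+ and BCL11b-ID2- libraries and overlapped with both BCL11b-positive gates. Pkm was called over BCL11b-ID2+ (1.95-fold by means, log2 difference 0.97 ± 0.19 SE, adjusted p = 0.00175) and over BCL11b-ID2- (log2 difference 0.60 ± 0.19 SE, adjusted p = 0.0411) in limma. The second of these was lost without library 1 of BCL11b-ID2+ or library 1, 2 or 4 of BCL11b-ID2- or library 1, 2 or 4 of BCL11blowID2low (highest adjusted p = 0.13, lowest log2 difference 0.55).

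Ldha, lactate dehydrogenase A, which reduces pyruvate to lactate, had 1856, 2952 and 2199 in BCL11blowID2low libraries. Levels were 1594, 1675 and 1605 in DN2 and 2071, 2328 and 2939 in BCL11b+ID2+ libraries. BCL11b+ID2- libraries had 749.7, 1573 and 1350.3, those of BCL11b-ID2+ 1184, 1626 and 1499.8, and those of BCL11b-ID2- 1173, 1798 and 1268. The BCL11blowID2low libraries lay above every library of DN2, BCL11b+ID2-, BCL11b-ID2+ and BCL11b-ID2-. The difference passed over BCL11b+ID2- (log2 difference 0.97 ± 0.23 SE, adjusted p = 0.0125) and BCL11b-ID2- (log2 difference 0.72 ± 0.23 SE, adjusted p = 0.0396), and missed the threshold over BCL11b-ID2+ (log2 difference 0.69, adjusted p = 0.0728) and DN2 (log2 difference 0.50, adjusted p = 0.172), in limma. The first call was lost without library 1 of BCL11b+ID2- or library 2 of BCL11blowID2low (highest adjusted p = 0.0968, lowest log2 difference 0.65), and the second without library 1 or 4 of BCL11b-ID2- or library 2 or 4 of BCL11blowID2low (highest adjusted p = 0.196, lowest log2 difference 0.54).

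Counted together, 4 of 10 members were called over BCL11b-ID2-, where 14% of all genes were called. The counts were 3 of 10 over BCL11b+ID2- (6.91% of all genes), 2 of 10 over BCL11b-ID2+ (8.57%), 2 of 10 over DN2 (14.8%) and 0 of 10 over BCL11b+ID2+ (4.43%). In the last contrast, 1 member, Tpi1, had an unadjusted p under 0.05 and edgeR called 0. The median log2 difference of the 10 members was 0.85 over BCL11b-ID2-, 0.93 over BCL11b+ID2-, 0.85 over BCL11b-ID2+, 0.55 over DN2 and 0.10 over BCL11b+ID2+. Over all genes the medians in the same contrasts were -0.14, -0.06, -0.11, -0.07 and -0.09. Without overlap, and higher in BCL11blowID2low, were 7 members against BCL11b-ID2-, 5 against BCL11b+ID2-, 7 against BCL11b-ID2+, 6 against DN2 and 1 against BCL11b+ID2+. The share of all genes without overlap was not counted, so these counts are descriptions and cannot be set against all genes. These contrasts share the 3 BCL11blowID2low libraries. Summed over the 10 members, the gate had 5003 to 6751 normalised read counts per library, and BCL11b+ID2+ 4613 to 6764, against 2411 to 4193 in the other 4 gates.

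With only the gates compared in the model, which also changes the genes that pass the filter and are adjusted over, 9 of the 16 calls at E19.5 remained, and with no filter on low values 12. Pkm and Ldha over BCL11b-ID2- and Aldoa over BCL11b+ID2- were lost under both. Eno1 and Ldha over BCL11b+ID2- and Aldoa over BCL11b-ID2+ were lost only with the first of these settings, with adjusted p between 0.0537 and 0.0909 in limma.

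**Figure D2:**
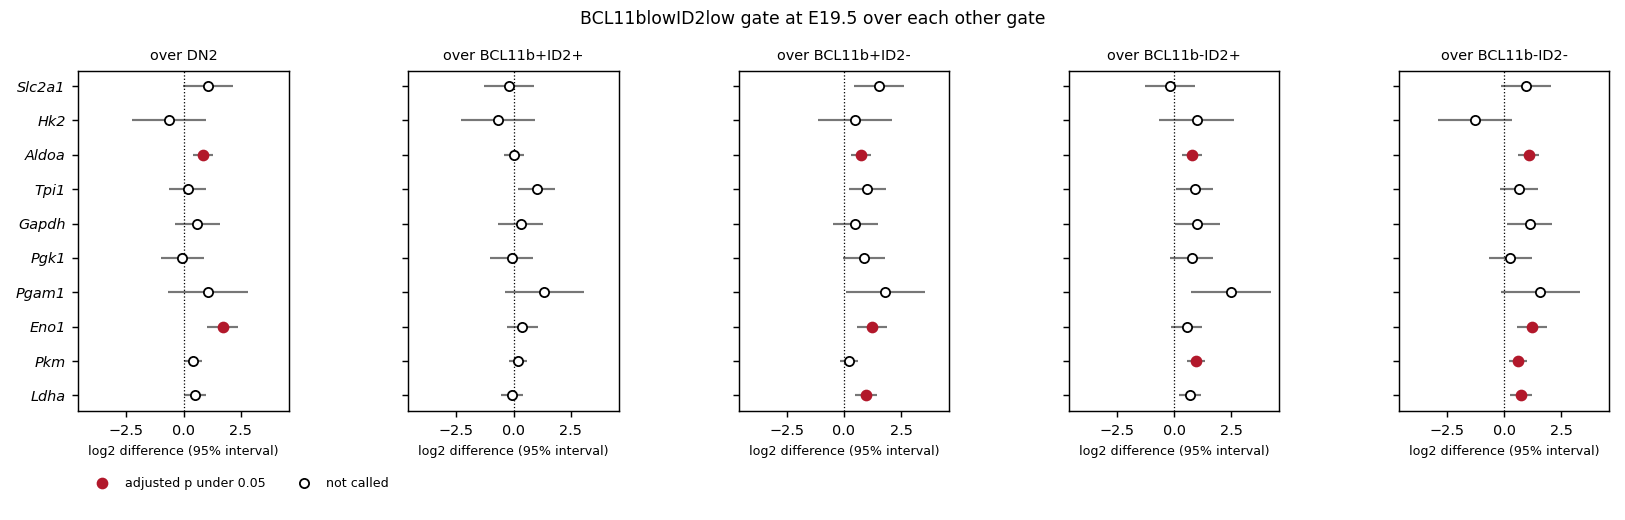
Log2 difference of each gene between the BCL11blowID2low gate and each other gate at E19.5 (x axis, with the 95% interval as a line); filled red points have a limma adjusted p under 0.05. Aldoa is called in 4 of the 5 panels, and no gene is called over BCL11b+ID2+.

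Other genes moved in the same contrasts. Of 9 genes often used as references, 3 rose in BCL11blowID2low over BCL11b-ID2- and over DN2 (Actb, B2m and Ywhaz in both), 2 rose over BCL11b+ID2- (Actb and B2m), and 0 fell in these contrasts. Actb, cytoplasmic actin, averaged 34824 ± 5859 in BCL11blowID2low and 12428 ± 1687 in BCL11b-ID2- cells (log2 difference 1.48, adjusted p = 5.78e-07 in limma). The median of the 9 was -0.03 over BCL11b-ID2-, 0.40 over BCL11b+ID2- and 0.03 over DN2. Cell cycle genes summed to 10942 to 15817 in BCL11blowID2low libraries, against 6834 to 7456 in BCL11b-ID2-, 7753 to 9666 in BCL11b-ID2+, 9654 to 10820.3 in BCL11b+ID2- and 11025 to 12063 in DN2 libraries. BCL11b+ID2+ libraries had 6883 to 9033. Of these 12 genes, 3 rose over BCL11b-ID2- (Ccna2, Mki67 and Top2a), 3 over BCL11b-ID2+ (Mcm2, Mki67 and Top2a), 1 over DN2 (Mki67) and 0 over BCL11b+ID2-, where no cell cycle gene was called in either direction. Over BCL11b+ID2+, where 0 of 10 members were called, 3 cell cycle genes rose (Mcm2, Mki67 and Top2a) and 0 fell. The mitochondrial ribosomal share was 28.7 to 45.4% in BCL11blowID2low libraries, 38.8 to 47.0% in DN2, 34.3 to 44.4% in BCL11b-ID2+, 40.9 to 50.3% in BCL11b-ID2-, 42.0 to 53.5% in BCL11b+ID2- and 42.1 to 58.8% in BCL11b+ID2+. The part of these in the glycolysis differences was not tested.

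Markers of other cells differed between the gates compared. The 6 macrophage, monocyte and granulocyte markers, all with a row, summed to 48.1 to 147 in BCL11blowID2low and 2113 to 3178 in BCL11b-ID2- libraries, with Elane at 0 in every BCL11blowID2low library. The 4 dendritic markers summed to 0 to 26.6 in BCL11blowID2low libraries, where Flt3 and Siglech were at 0, and 318 to 524 in BCL11b-ID2- libraries. Against DN2, macrophage, monocyte and granulocyte markers summed to 48.1 to 147 in BCL11blowID2low and 182 to 302 in DN2 libraries. Csf1r, a macrophage marker, rose over DN2, BCL11b+ID2- and BCL11b-ID2+ cells, with list medians on the log2 scale of 0.03, 1.61 and 0.86. Cpa3, a mast cell gene, averaged 37.0 ± 31.5 in BCL11blowID2low cells, against 817 ± 108 in DN2 and 809 ± 200.2 in BCL11b+ID2- cells (SD, n = 3 each). BCL11b-ID2+ cells averaged 392 ± 54.0 and BCL11b-ID2- cells 378 ± 31.8, and Cpa3 fell in BCL11blowID2low cells in all 4 contrasts. It was the 1 gene called of the 4 tested on its list of erythroid, megakaryocyte and mast cell genes, whose median log2 difference was 2.08 over DN2, -0.58 over BCL11b+ID2-, -0.28 over BCL11b-ID2+ and -1.09 over BCL11b-ID2-. Dendritic markers summed to 375 to 546 in BCL11b-ID2+ libraries. Epithelial, stromal and endothelial markers summed to 75.9 to 229 in BCL11blowID2low libraries, with Col1a1 at 0, and 783 to 1204 in BCL11b-ID2-, 546 to 977 in BCL11b+ID2- and 557 to 910.3 in DN2 libraries. Their part in the glycolysis differences was not tested.

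Among BCL11b-positive DN1 cells, the ID2-positive gate was higher for the transporter, the aldolase and lactate dehydrogenase. Ldha gave the firmest of these, 1.998-fold by means in BCL11b+ID2+ over BCL11b+ID2- cells (log2 difference 1.05 ± 0.23 SE, adjusted p = 0.0046 in limma), and it stayed called when each library was left out in turn. Slc2a1 averaged 475 ± 177 in BCL11b+ID2+ and 191 ± 142 in BCL11b+ID2- cells (SD, n = 3 each; log2 difference 1.77 ± 0.53 SE, adjusted p = 0.0366). Without the BCL11b+ID2- library 1, which held 31.2 on 18 reads, the Slc2a1 log2 difference was 0.75. The call was lost without library 2 or 4 of BCL11b+ID2+ or library 1 of BCL11b+ID2- (highest adjusted p = 0.256, lowest log2 difference 0.75). Aldoa rose too (log2 difference 0.75 ± 0.21 SE, adjusted p = 0.027), a call lost without library 2 or 4 of BCL11b+ID2+ or library 1 or 4 of BCL11b+ID2- (highest adjusted p = 0.145, lowest log2 difference 0.62). The Slc2a1 call was also lost with no filter (adjusted p = 0.0552), with only the 2 gates in the model (0.139) and in edgeR (0.104). In this contrast 3 of 10 members were called, where 8.73% of all genes were, and all 10 differences were positive, with a median of 0.79 against 0.00 over all genes.

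Other genes moved in that contrast too. Of 6 macrophage, monocyte and granulocyte markers 3 rose (Adgre1, Csf1r and Lyz2), and the list summed to 177 to 354 in BCL11b+ID2+ libraries, with Elane and Itgam at 0, and 5.21 to 110.3 in BCL11b+ID2- libraries, with Elane and Lyz2 at 0. Cpa3 fell, with 28.5 ± 16.9 in BCL11b+ID2+ and 809 ± 200.2 in BCL11b+ID2- cells, while the median of the 4 tested genes on its list was 0.94. Of early thymocyte and T cell genes, Il2ra, Il7r and Kit rose, and Bcl11b, Cd3e and Tcf7 fell. Epithelial, stromal and endothelial markers summed to 179 to 342 in BCL11b+ID2+ and 546 to 977 in BCL11b+ID2- libraries, with Krt8 at 0 in both, and 1 of 4 tested fell (Pecam1). Of 9 reference genes 3 rose (Actb, B2m and Hprt), and of 12 cell cycle genes 1 fell (Top2a). Innate lymphoid markers, among them the sorting gene Id2, summed to 6851 to 7376 in BCL11b+ID2+ and 1739.7 to 1938 in BCL11b+ID2- libraries. Their part in the glycolysis differences was not tested.

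Among BCL11b-negative cells, 0 of 10 members were called between the ID2 gates in limma, where 15.9% of all genes were. Of the 10, 3 had an unadjusted p under 0.05 and edgeR called 0. Slc2a1 did not overlap, at 384, 465 and 468 in BCL11b-ID2+ and 139, 269 and 207 in BCL11b-ID2- libraries (log2 difference 1.14, adjusted p = 0.161). Hk2, hexokinase 2, which traps glucose as glucose 6-phosphate, pointed the other way, with 22.8, 13.8 and 65.5 in BCL11b-ID2+ and 98.8, 244 and 108 in BCL11b-ID2- libraries (log2 difference -2.27, adjusted p = 0.0503). Those Hk2 values did not overlap either. The difference of the ID2 effect between the BCL11b states was tested as an interaction, and 0 of 10 members passed in limma (9.28% of all genes did). Of these, 3 members had an unadjusted p under 0.05 and edgeR called 0. The lowest adjusted p values were those of Hk2 (0.0539, interaction 3.42 ± 1.11 SE on the log2 scale) and Ldha (0.0553, 1.01 ± 0.33). With the library number as a replicate block in limma, both passed (adjusted p = 0.0217 for Hk2 and 0.00768 for Ldha). With that block 1546 of 13840 genes passed.

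With BCL11b as the divider, the ID2-positive gates differed at 2 of 10 members, Pkm and Aldoa, where 6.03% of all genes were called. Pkm averaged 707 ± 99.2 in BCL11b+ID2+ and 409 ± 45.0 in BCL11b-ID2+ cells (log2 difference 0.79 ± 0.19 SE, adjusted p = 0.0132 in limma), and Aldoa 1423 ± 303 in BCL11b+ID2+ and 835 ± 232 in BCL11b-ID2+ cells (log2 difference 0.78 ± 0.21 SE, adjusted p = 0.0261). The Pkm call was lost without library 2 of BCL11b+ID2+ or library 2 of BCL11b-ID2+ (highest adjusted p = 0.0939, lowest log2 difference 0.67), and the Aldoa call without library 2 or 4 of BCL11b+ID2+ or library 1 or 4 of BCL11b-ID2+ (highest adjusted p = 0.195, lowest log2 difference 0.59). Ldha missed the threshold (log2 difference 0.76, adjusted p = 0.0539) without overlap of the libraries. Csf1r rose in this contrast, as did Bcl11b, Cd3e, Il2ra, Il7r and Kit of the thymocyte list and Gata3 and Il1rl1 of the innate lymphoid list. Cpa3, the dendritic marker Itgax, Ptprc, Tcf7, Il2rb and Ncr1 fell. Dendritic markers summed to 32.05 to 38.3 in BCL11b+ID2+ libraries, with Siglech at 0, and 375 to 546 in BCL11b-ID2+ libraries, and their part was not tested. Between the ID2-negative gates, BCL11b+ID2- over BCL11b-ID2-, 0 of 10 members were called in limma (14.9% of all genes). There 1 member, Hk2, had an unadjusted p under 0.05 and edgeR called 0.

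**Figure D3:**
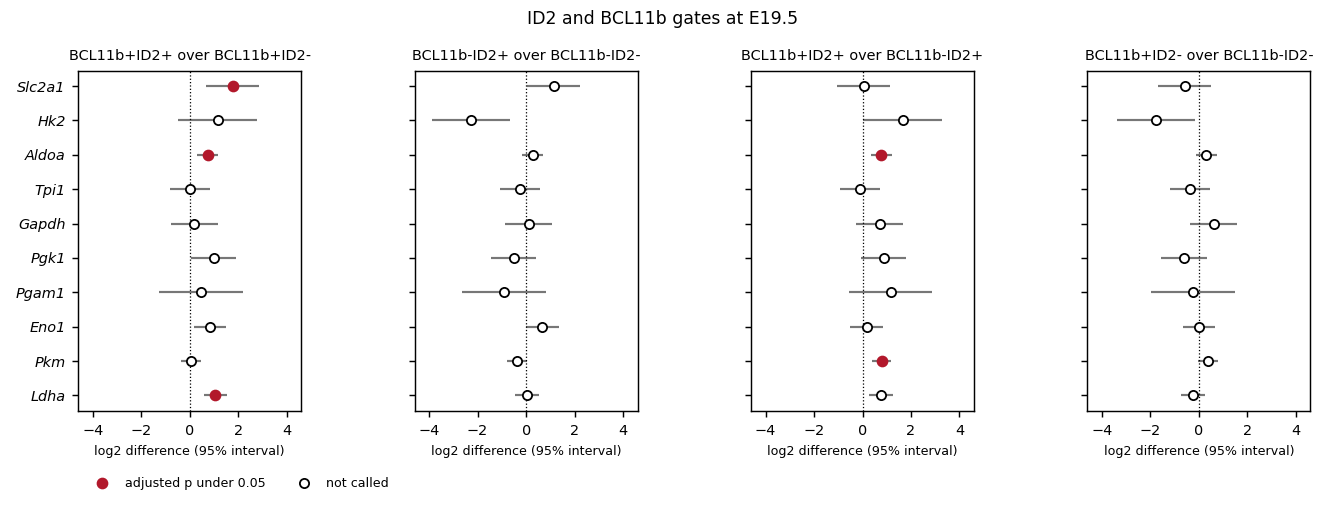
Log2 difference (x axis, with its 95% interval) of each gene in the 4 contrasts between DN1 gates positive or negative for ID2 or BCL11b at E19.5; filled red points have a limma adjusted p under 0.05. Slc2a1, Aldoa and Ldha are called in BCL11b+ID2+ over BCL11b+ID2- cells, and Aldoa and Pkm in BCL11b+ID2+ over BCL11b-ID2+ cells.

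DN2 cells gave no call for these genes over either ID2-negative DN1 gate. Of the thymocyte list, Il2ra and Kit rose and Cd3e fell in DN2 over BCL11b+ID2- cells. Whether these sorted gates follow one another was not tested. Over BCL11b+ID2- cells 0 of 10 members were called in limma, where 16.2% of all genes were. Of the members, 2 had an unadjusted p under 0.05 and edgeR called 0. Over BCL11b-ID2- cells 0 of 10 were called (2.98% of all genes), 0 at an unadjusted p under 0.05, and edgeR called 0. For Ldha the 95% interval of the DN2 difference was -0.01 to 0.96 over BCL11b+ID2- and -0.26 to 0.71 over BCL11b-ID2-. For Eno1 it was -1.15 to 0.18 and -1.14 to 0.18.

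Of the 5 members without a call, Hk2 varied most within gates. It had 9.96, 131 and 124 in BCL11blowID2low and 84.8, 71.9 and 108 in DN2 libraries, and BCL11blowID2low library 1 stood at 9.96 on 6 reads. Tpi1, triose phosphate isomerase, averaged 398 ± 106 in BCL11blowID2low, 345 ± 57.7 in DN2, and 219.5 ± 115 in BCL11b+ID2+ cells (SD, n = 3 each). BCL11b+ID2- cells averaged 204 ± 85.6, BCL11b-ID2+ cells 209 ± 36.7, and BCL11b-ID2- cells 250.02 ± 45.0. Its means were highest in BCL11blowID2low and DN2 cells, which overlapped, and the BCL11blowID2low libraries lay above all BCL11b+ID2- and BCL11b-ID2+ libraries (log2 difference 1.03, adjusted p = 0.122, and log2 difference 0.90, adjusted p = 0.19, in limma). Gapdh, which oxidises glyceraldehyde 3-phosphate, had 106, 113 and 123 in BCL11blowID2low libraries and 29.9 to 142 in the others, with no call. Pgk1, phosphoglycerate kinase, ran from 31.2 to 183 over the 18 libraries, and its 3 highest gate means, in DN2, BCL11b+ID2+ and BCL11blowID2low cells, lay between 113 and 120 with overlap. Pgam1, phosphoglycerate mutase, had 9.96, 29.1 and 18.6 in BCL11blowID2low libraries and 0.768 to 10.7 in the others, on 1 to 26 reads per library. Pgam1 was the only member whose BCL11blowID2low libraries lay above those of BCL11b+ID2+, and it missed the threshold there (log2 difference 1.34, adjusted p = 0.464) and nearest over BCL11b-ID2+ (log2 difference 2.49, adjusted p = 0.0691) in limma.

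At E15.5 the same genes had a wider spread within gates. The coefficient of variation within a gate had a median of 73.9% over members and gates, against 23.9% at E19.5. Fewer genes were detected per library, 8277 to 12954 against 14387 to 18879 at E19.5. Reads outside mitochondrial genes were not fewer, with 3393061 to 7808245 per library against 1762514 to 5161153 at E19.5. The part of this in the E15.5 spread was not tested. Slc2a1 had 73.0, 1666 and 9607 in BCL11b+ID2+ and 9.47, 8.70 and 72.8 in BCL11b+ID2- libraries. The BCL11b+ID2+ libraries were all higher, though library 1 of BCL11b+ID2+ and library 3 of BCL11b+ID2- nearly met. The others had 581, 1194 and 689.8 (BCL11b-ID2+), 348, 117 and 310.2 (BCL11b-ID2-), and 4.1002 and 190.0 (DN2). The gates of BCL11b-negative cells did not overlap either, with BCL11b-ID2+ higher.

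Hk2 had 1142 and 358 in DN2, and 1.999, 101 and 3974 in BCL11b+ID2+ libraries at E15.5. BCL11b+ID2- libraries had 4.37, 5.44 and 3.16, those of BCL11b-ID2+ 13.6, 343 and 433, and those of BCL11b-ID2- 358, 502 and 832. It was low in all 3 BCL11b+ID2- libraries, on 2 to 6 reads each, and every DN2 and BCL11b-ID2- library lay above them. Tpi1 was low in the same gate, with 1.46, 0 and 1.58 in BCL11b+ID2-, 4.1002 and 197 in DN2 and 816, 111 and 13.5 in BCL11b-ID2- libraries. Eno1 showed the reverse, with 16.4 and 2.45 in DN2 and 695, 516 and 109 in BCL11b+ID2- libraries, which did not overlap. Ldha ran from 997 to 4685 over all 14 libraries. Aldoa, Tpi1 and Gapdh were each at 0 in 1 library, and Pgam1 at 0 in 8 of 14. Summed over the 10 members, BCL11b+ID2+ library 3, which had the highest Slc2a1 and Hk2, reached 21633, and the other 13 libraries ran from 2625 to 6061. With that library left out, 0 members were called in limma at E15.5.

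None of these E15.5 differences passed in limma. The count was 0 of 10 members for BCL11b+ID2+ over BCL11b+ID2- (0.719% of all 10289 genes were called), although 3 members had an unadjusted p under 0.05 and edgeR called 1, Slc2a1 (log2 difference 6.92, adjusted p = 0.0313 in edgeR against 5.76 and 0.121 in limma). It was 0 of 10 for BCL11b-ID2+ over BCL11b-ID2- (0.467% of all genes, 0 members at an unadjusted p under 0.05, edgeR 0) and for BCL11b+ID2- over BCL11b-ID2- (0.00972%, 3 and 0). The count was again 0 for BCL11b+ID2+ over BCL11b-ID2+ (0.0778%, 0 and 0), and for DN2 over BCL11b+ID2- (0%, 2 and 0). The interaction gave 0 of 10 (0%, 1 and 0), and the F-test over the 5 gates 0 of 10 (1.52%, 2 and 1, again Slc2a1). Hk2 in BCL11b+ID2- over BCL11b-ID2- cells had a log2 difference of -6.66 ± 2.03 SE and an adjusted p = 0.431 in limma. The E15.5 groups rest on matching the column numbers of that table to the barcode numbers in the sample descriptions.

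**Figure D4:**
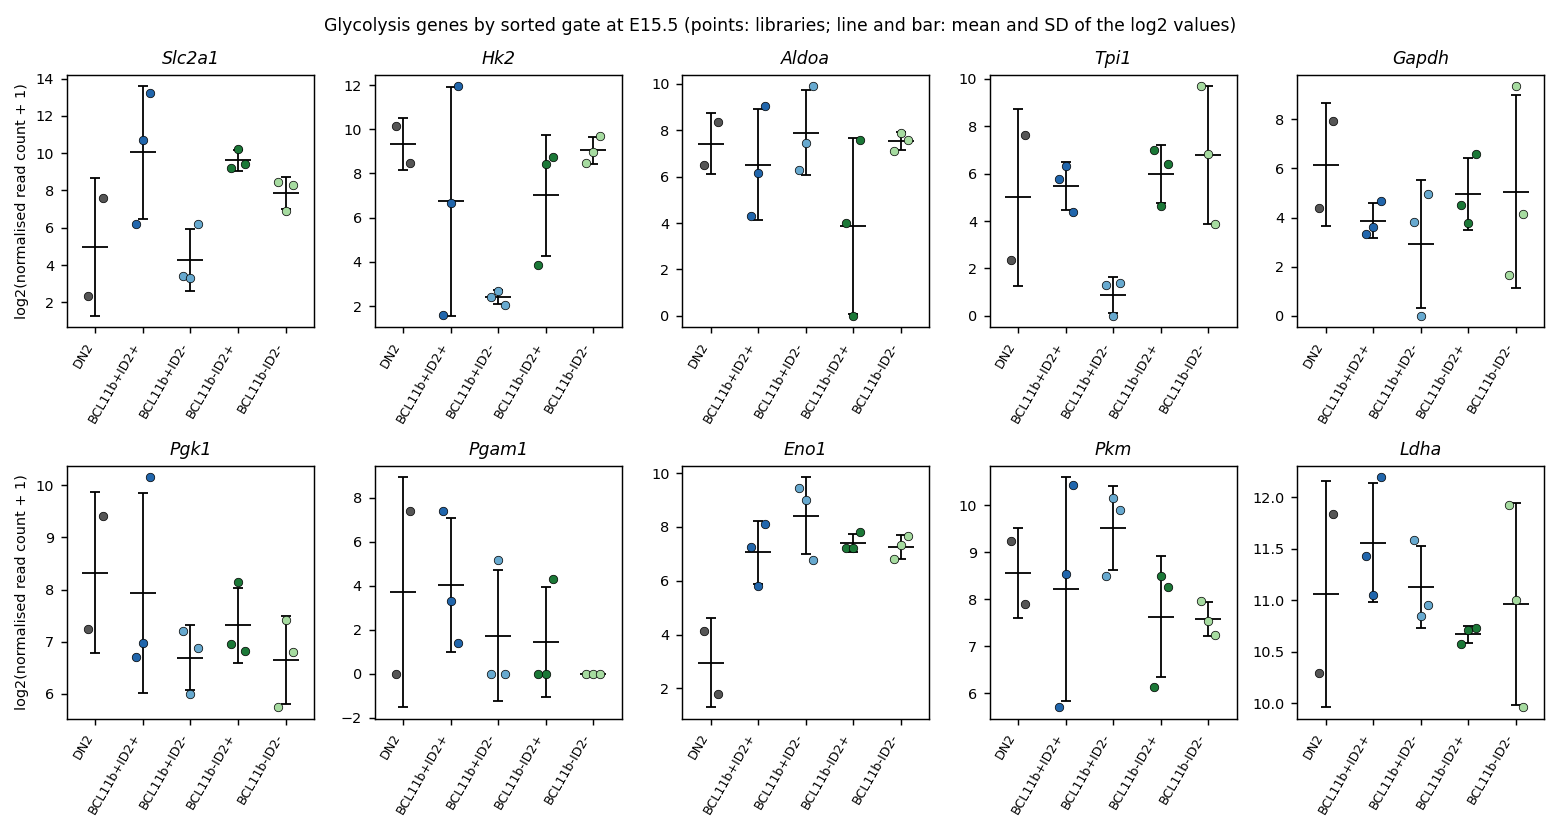
Values of the 10 genes in each library at E15.5, as log2(normalised read count + 1), by sorted gate; points are libraries, and the line and bar are the mean and SD of the log2 values of 3 libraries, or 2 for DN2. Hk2 and Tpi1 are low in all 3 BCL11b+ID2- libraries, Eno1 is low in both DN2 libraries, and most other gates spread over several log2 units.

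Across libraries the members varied together at E19.5 more than at E15.5. Pearson's r between 2 members, on log2 values over the 18 libraries of E19.5, had a median of 0.48 over the 45 pairs, with a range of 0.05 to 0.79 and 20 pairs over 0.5. Over the 14 libraries of E15.5 the median was 0.09, the range -0.57 to 0.56, and 15 pairs were below 0. Libraries share depth and gate, so these values are descriptions. The genes most like the mean of the members at E19.5, of 4575 with a mean of at least 100, were Selenot (r = 0.84), Snx2 (0.83), Spcs2 (0.82), Pdia6 (0.79) and Slc25a4 (0.78) over 18 libraries. At E15.5 they were Tmem241 (0.91), Tnfrsf10b (0.87), Ythdf3 (0.84), Pfdn2 (0.81) and Fosb (0.80) over 14 libraries, so no gene stood among the 5 at both stages.

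The rest of the pathway was read from a list of 15 genes for the other glycolytic steps and isoforms, of which 12 were tested at E19.5. In BCL11blowID2low over BCL11b-ID2- cells 3 of the 12 rose and 0 fell, with a median log2 difference of 0.08. Pfkp, the platelet-type phosphofructokinase of the committing step, averaged 540.4 ± 36.5 in BCL11blowID2low and 97.4 ± 23.6 in BCL11b-ID2- cells (log2 difference 2.48, adjusted p = 5.42e-06 in limma). It rose also over DN2, which averaged 113 ± 11.4 (log2 difference 2.25, adjusted p = 1.64e-05), and over BCL11b+ID2-, which averaged 272 ± 93.9 (log2 difference 1.04, adjusted p = 0.0466). Gpi1, which turns glucose 6-phosphate into fructose 6-phosphate, averaged 643 ± 48.2 in BCL11blowID2low and 380.2 ± 84.3 in BCL11b-ID2- cells (log2 difference 0.78, adjusted p = 0.0115), and 377 ± 50.3 in BCL11b-ID2+ cells (log2 difference 0.78, adjusted p = 0.0174). Hk1, the widely expressed hexokinase, averaged 204 ± 106 in BCL11blowID2low and 87.9 ± 22.1 in BCL11b-ID2- cells (log2 difference 1.11, adjusted p = 0.0399).

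Isoforms of 2 members, Slc2a3 and Ldhb, each gave a call opposite to that of Slc2a1 or Ldha in 1 contrast. Slc2a3 (GLUT3), a second glucose transporter, averaged 78.9 ± 28.8 in BCL11b+ID2+ and 330.2 ± 218 in BCL11b+ID2- cells (log2 difference -1.85, adjusted p = 0.0186 in limma), where Slc2a1 was higher in BCL11b+ID2+. In BCL11blowID2low cells Slc2a3 rose over BCL11b+ID2+ cells (log2 difference 1.77, adjusted p = 0.0402). Ldhb, the subunit of lactate dehydrogenase that favours pyruvate formation, averaged 24.98 ± 10.6 in BCL11blowID2low and 112 ± 25.2 in BCL11b+ID2- cells (log2 difference -2.16, adjusted p = 0.0323), where Ldha was higher in BCL11blowID2low. Over BCL11b-ID2+ cells Ldhb rose in both the BCL11blowID2low and the BCL11b+ID2+ gate, where the Ldha difference was also positive and missed the threshold. Hk1 and Pfkp rose in BCL11b-ID2+ over BCL11b-ID2- cells (log2 difference 1.403, adjusted p = 0.00813 for Hk1, log2 difference 1.82, adjusted p = 0.000209 for Pfkp), the contrast with no called member. Of the 12 genes, 2 rose and 1 fell there, 3 rose and 0 fell in BCL11b+ID2- over BCL11b-ID2-, and 0 rose and 3 fell in DN2 over BCL11b+ID2- cells.

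**Figure D5:**
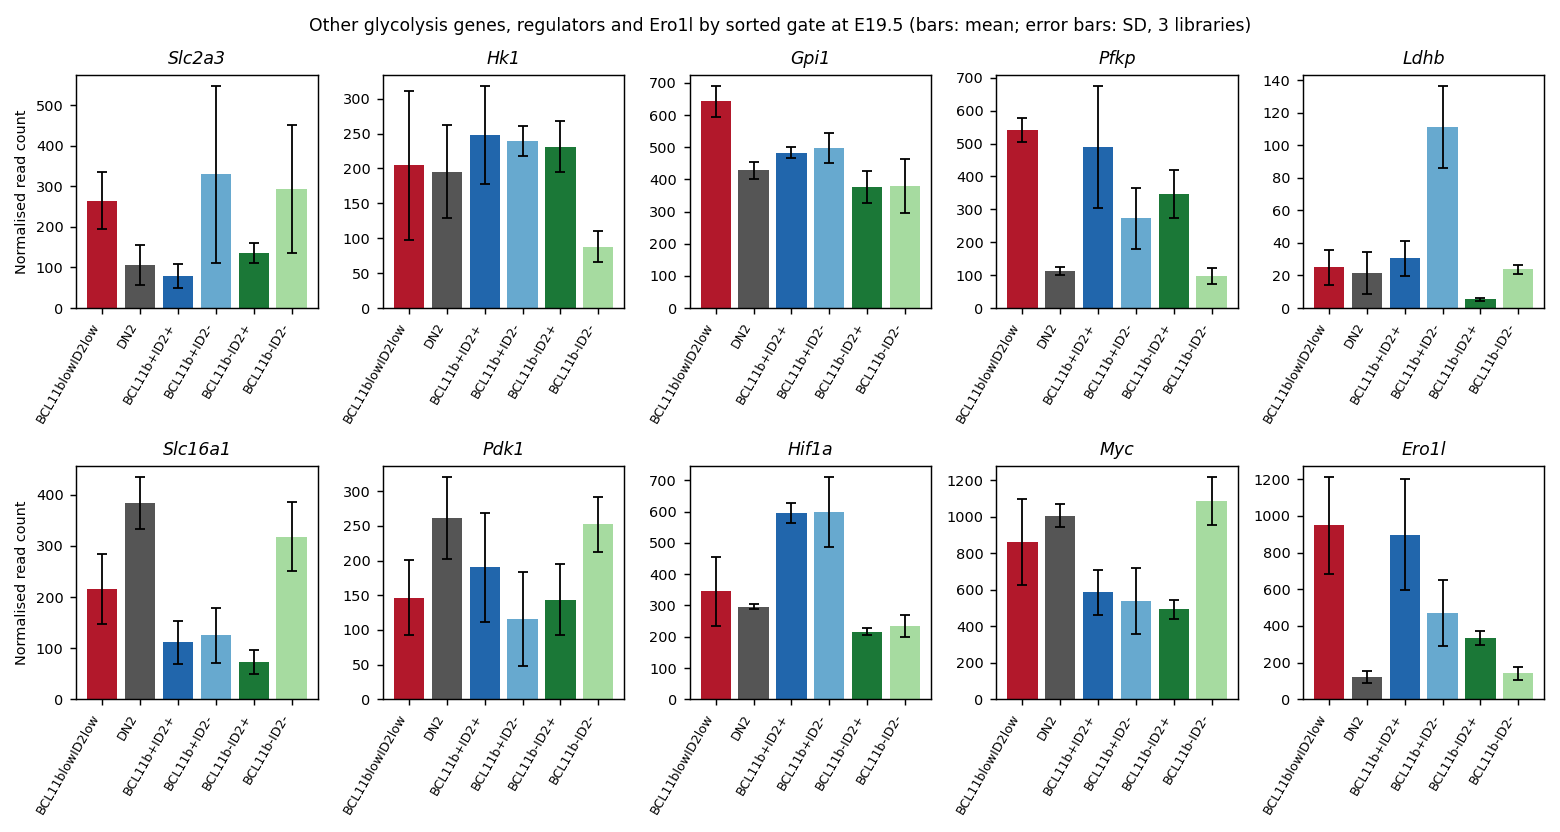
Mean normalised read counts (bars, from 0) with SD (3 libraries) at E19.5 of genes for other glycolytic steps, lactate and pyruvate handling and regulation, by sorted gate. Pfkp and Ero1l are high in the BCL11blowID2low and BCL11b+ID2+ gates, while Slc16a1 has its highest mean in DN2 and Hif1a is highest in the 2 BCL11b-positive DN1 gates.

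Among 12 regulators, all tested at E19.5, no contrast of BCL11blowID2low cells gave more than 2 calls in a direction. Hif1a, the oxygen-regulated HIF-1 subunit, fell in BCL11blowID2low cells, at 346 ± 109.8, against 599 ± 112 in BCL11b+ID2- cells (log2 difference -0.83, adjusted p = 0.044 in limma), the contrast in which Aldoa, Eno1 and Ldha rose. Hif1a rose in BCL11b+ID2+ over BCL11b-ID2+ cells, with 595 ± 31.99 and 216 ± 10.7 (log2 difference 1.45, adjusted p = 0.000437). Myc, itself a regulator of these genes, averaged 862 ± 236 in BCL11blowID2low and 492 ± 49.4 in BCL11b-ID2+ cells (log2 difference 0.77, adjusted p = 0.0434), and was not called in the other 4 contrasts of the gate. Mycn, on the same list, rose with Myc over BCL11b-ID2+ but fell over BCL11b-ID2- cells, the contrast with 4 called members. These are RNA levels, and the part of the regulators in the glycolysis differences was not tested. Txnip, which restrains glucose uptake, averaged 282 ± 167 in BCL11blowID2low and 906 ± 378 in BCL11b+ID2+ cells (log2 difference -1.76, adjusted p = 0.0191), and rose over DN2 cells, which averaged 103 ± 47.3 (log2 difference 1.401, adjusted p = 0.0305).

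Of 12 other HIF target genes, 11 were tested at E19.5. In BCL11blowID2low over DN2 cells 2 rose (Ero1l and Ddit4) and 2 fell (Ndrg1 and Vegfa), with a median log2 difference of 0.27. Ero1l, an oxidase that forms disulfide bonds in the endoplasmic reticulum, averaged 947 ± 264 in BCL11blowID2low and 123 ± 31.6 in DN2 cells (log2 difference 2.92, adjusted p = 7.81e-07 in limma), and it rose over BCL11b-ID2- (log2 difference 2.72, adjusted p = 2.9e-06) and BCL11b-ID2+ cells (log2 difference 1.46, adjusted p = 0.0047). Ddit4, an inhibitor of mTORC1, averaged 275 ± 103 in BCL11blowID2low and 22.99 ± 5.23 in DN2 cells (log2 difference 3.48, adjusted p = 1.25e-06). At E15.5 Ero1l was the 1 gene of the pathway lists called, at 7107 ± 1122 in BCL11b+ID2+ and 388 ± 214 in BCL11b+ID2- cells (SD, n = 3 each; log2 difference 4.32, adjusted p = 0.0243).

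Genes for pyruvate and lactate handling and for glycolytic control, 13 of 15 tested, gave 1 call in BCL11blowID2low over BCL11b-ID2+ (Slc16a1), 1 over DN2 (Tigar) and 0 in the other 3 contrasts of the gate in limma. Slc16a1 (MCT1), a lactate and pyruvate carrier, averaged 216 ± 69.1 in BCL11blowID2low and 72.9 ± 23.6 in BCL11b-ID2+ cells (log2 difference 1.56, adjusted p = 0.0118). In DN2 over BCL11b+ID2- cells 3 rose, among them Slc16a1 (log2 difference 1.71, adjusted p = 0.00366) and Pdk1, which restrains pyruvate dehydrogenase (log2 difference 1.32, adjusted p = 0.0311), and 0 fell. The pentose phosphate branch, 10 genes with gluconeogenesis, split by contrast. Tkt, transketolase, averaged 592 ± 104 in BCL11blowID2low and 299.7 ± 76.2 in BCL11b+ID2- cells (log2 difference 0.998, adjusted p = 0.0064), and 1041 ± 63.8 in BCL11b-ID2- cells (log2 difference -0.83, adjusted p = 0.0121) and 1254 ± 284 in DN2 cells (log2 difference -1.07, adjusted p = 0.0013). Pgd, which makes NADPH, rose in BCL11b+ID2+ over BCL11b+ID2- cells (log2 difference 1.54, adjusted p = 0.0126) and in BCL11blowID2low over BCL11b+ID2- cells (log2 difference 1.46, adjusted p = 0.0246).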

How the data were processed

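RNA-seq was done on 32 libraries of sorted thymic cells, amplified with the Ovation RNA-seq System V2 per the labels' protocols. The authors deposited a table per stage of signal values, reads per gene divided by a DESeq2 size factor (Trim Galore, STAR and DESeq2 on GRCm38 are named, per the submitters' processing notes). Every value was a whole number of reads after rescaling (100%, tolerance 0.01). The counting tool was not given in the sources used here.

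Values were tested as log2(value + 1) in limma 3.58.1 (R 4.3.3, trend and robust) after a filter of at least 10 in at least 3 libraries, all gates of a stage in 1 model, Benjamini-Hochberg adjusted, threshold 0.05. SE and 95% intervals come from that fit. Alternatives were a pseudocount of 8, no filter, only the gates compared, TMM scaling, edgeR 4.0.16 on recovered reads, a replicate block and leaving out each library. Steps were tested on simulated data. Named were the 10 members and, of other lists, up to 3 genes per direction and comparison past the threshold, without overlap and with a mean of at least 100. Names that only stand beside a count of 5 or fewer, and the examples of markers at 0, were chosen after their values were seen. Members and lists were chosen with earlier results of these data known. The 5 most alike genes were ranked by Pearson's r with the mean of the members' standardised log2 values. Promoters came from RefSeq (GRCm38.p6), and shared stretches were counted in annotated transcripts. Depth per library is given with the results, and low read counts limit precision. Some marker genes are not reported here.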

Additional observations from a re-analysis of the deposited data

How the results depend on the processing

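Of the 16 calls at E19.5, all 16 kept their direction and side of the threshold with TMM scaling, with a pseudocount of 8 and with a replicate block, 15 in edgeR, 12 with no filter and 9 with only the gates compared, and 0 reversed. When single libraries were left out, 250 of 288 refits kept the call. These refits left out each of the 18 libraries of the stage in turn, most of them from gates outside the contrast. Losses came from libraries of the 2 gates compared, except 1 for Pkm in BCL11blowID2low over BCL11b-ID2- (library 1 of BCL11b-ID2+). The share kept therefore overstates how stable the calls were to the libraries compared. Counts of members called moved as follows, with all genes called in brackets. In edgeR, Slc2a1 gave 1 call at E15.5 for BCL11b+ID2+ over BCL11b+ID2- (62 of 10289) and 1 in the F-test (251 of 10289). A pseudocount of 8 gave 1 for BCL11b-ID2+ over BCL11b-ID2- (2395 of 13840) and 2 for the interaction (1544 of 13840). No filter gave 2 for BCL11blowID2low over BCL11b-ID2- (1827 of 26244). With only the gates compared, the counts were 2 for BCL11b-ID2+ over BCL11b-ID2- (2736 of 11481) and 1 for the interaction (1459 of 13141). For BCL11blowID2low they were 2 over BCL11b-ID2- (1424 of 11150), 0 over BCL11b+ID2- (381 of 10892) and 1 over BCL11b-ID2+ (885 of 10992). The cause was not tested.

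At E19.5 the deviations of libraries with the same number correlated above 0 in all 45 pairs (r between 0.00202 and 0.129, median 0.0538, 1 over 0.1), against a median of -0.0205 over 90 pairs with different numbers. The best match of 17 of 18 libraries had the same number, a hint of pairing in the data. The sample titles carry the numbers (M1, M2 and M4 in every E19.5 gate) but do not say what M stands for. At E15.5 the median was 0.0145 over 26 pairs, and the best match had the same number for 8 of 14. The labels do not state a pairing and not every pair passed 0.1, so the main model left the numbers out. Tests given without the block therefore ignore a pairing that the titles and the E19.5 values hint at. With the replicate block, 5 of the 55 tests of members without a call were called: Tpi1 in DN2 over BCL11b+ID2- and in BCL11blowID2low over 3 gates (adjusted p between 0.0234 and 0.0421 in limma), and Hk2 in BCL11b-ID2+ over BCL11b-ID2- (0.0197). The F-test then called 6 members, with Tpi1 (0.0137), and 5026 of 13840 genes. The block in limma also called Slc2a1 in BCL11blowID2low over BCL11b+ID2- (0.0288) and Eno1 in BCL11b+ID2+ over BCL11b+ID2- (0.0336). Ldha was called in BCL11blowID2low over BCL11b-ID2+ (0.0102) and DN2 (0.0461), and in BCL11b+ID2+ over BCL11b-ID2+ (0.00543). The interaction was called for Hk2 (0.0217) and Ldha (0.00768). Counts of members, with all genes called of 13840 in brackets, were 1 for BCL11b-ID2+ over BCL11b-ID2- (2499) and 1 for DN2 over BCL11b+ID2- (2577). The interaction gave 2 (1546). BCL11blowID2low gave 1 over BCL11b+ID2+ (770), 5 over BCL11b+ID2- (1236) and 4 over BCL11b-ID2+ (1361).

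With 1 library left out, BCL11b+ID2+ over BCL11b+ID2- gave 1 to 3 calls, BCL11b-ID2+ over BCL11b-ID2- 0 to 2, BCL11b+ID2- over BCL11b-ID2- 0 to 1, BCL11b+ID2+ over BCL11b-ID2+ 0 to 3, and the interaction 0 to 2. BCL11blowID2low gave 1 to 5 over BCL11b-ID2-, 0 to 4 over BCL11b+ID2-, 1 to 4 over BCL11b-ID2+ and 2 to 3 over DN2. The numbers of all genes called in these refits are not given here, so the counts describe the members only. DN2 with 2 libraries at E15.5 and 1 to 26 reads of Pgam1 per library at E19.5 limit what these tests detect. So do the share of mitochondrial ribosomal reads and the lower number of genes detected per library at E15.5.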

Other observations

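At E19.5 the library numbered 1 had the lowest sum of the 10 members in 6 of 6 gates. It was the lowest of its gate in 6 of 6 gates for Tpi1, Eno1 and Ldha. Recovered reads were 2599470 to 7659239 in the 6 libraries numbered 1, 4544018 to 6753375 in those numbered 2 and 5579120 to 9498133 in those numbered 4. This was seen after the values were known, and the part of depth in it was not tested.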
